A study of Mus musculus with 8 samples.

Results

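Integrins, laminins and the proteins that link laminin sheets to the rest of the basement membrane were compared between GFP-positive cells of the embryonic cortex and of the lung. The genes were chosen by symbol in the platform annotation, as integrin alpha and beta subunits, laminin alpha, beta and gamma chains, and Nid1, Nid2, Hspg2 and Agrn. They comprised 38 of the 18193 genes measured, with 16 integrin alpha subunits, 8 integrin beta subunits, 10 laminin chains and 4 linkers. All cells came from mouse embryos at E13.5 of a homozygous Tie2-GFP transgenic strain, in which the Tie2 (Tek) promoter drives green fluorescent protein in endothelial cells. The cortex group held 4 arrays of cells from cortex cleared of meninges and choroid plexus, and the lung group 4 arrays of cells from lungs of embryos of the same age and strain. Each array held the pooled cells of a litter of 10 to 13 embryos, sorted for GFP after collagenase digestion, so that differences between single embryos were not measured. A count of 4 litters is given alike for every sample of both tissues. Samples of the tissues share the numbers 72, 22, 19 and 18, and the labels do not say whether a shared number means a shared litter. The main test treated the samples as unpaired. The promoter is also known to be active in some blood-forming cells, and the sort took no second marker that the labels name.

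Integrins are cell surface receptors made of an alpha and a beta subunit, and the pairing sets which matrix protein or cell surface ligand is bound. Laminins are cross-shaped proteins of an alpha, a beta and a gamma chain that form the sheet of a basement membrane next to the cell, while nidogens, perlecan (Hspg2) and agrin connect that sheet to collagen IV and to cell receptors. Vessel walls carry laminins with the alpha chains Lama4 and Lama5, and integrins with the subunit Itgb1 anchor endothelial cells to them. In the brain the integrin of Itgav and Itgb8 is known for releasing active TGF-beta from its latent form and for its role in the growth of vessels into neural tissue.

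The values are log2 intensities as deposited, and a difference is cortex minus lung on that scale, so that a difference of 1 is 2-fold. The microarray has no detection call in the deposited values, and levels of different probe sets are not comparable. With 4 arrays a tissue, precision is limited by their number. Array medians lay between 6.59 and 6.72. The SD of all values on an array was 2.36 for lung 18 and 2.39 for lung 22, against 2.45 to 2.54 on the others. Groups were taken from the titles, because the descriptions of the 4 samples with the numbers 19 and 18 give the opposite tissue. On every array titled cortex the mean of 20 neuronal and neural progenitor genes was high, from 10.68 to 11.27, and on every array titled lung it was low, from 6.23 to 6.51. The mean of 28 pan-endothelial genes was 9.91, 11.25, 11.40 and 9.55 on cortex arrays 72, 22, 19 and 18, and 11.68, 11.74, 11.84 and 11.33 on the lung arrays in the same order. Endothelial transcripts were thus high in both tissues, but cortex 72 and 18 carried less of them than the other arrays, beside the neural transcripts of the cortex cells. Of 10 choroid plexus markers, 2 were called towards cortex, Ttr (13.06, 10.67, 13.05 and 7.30 on cortex arrays 72, 22, 19 and 18, 33.9-fold, limma adjusted p = 0.0187) and Otx2 (9.96-fold, adjusted p = 0.00433), and 1 towards lung, although that tissue was removed. The mean of the list was 5.76 to 6.97 in cortex and 5.96 to 6.29 in lung, and its part in the results was not tested.

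Of the 38 genes, 15 were higher in lung, 1 was higher in cortex and 22 did not pass the test (limma, adjusted p under 0.05 over all genes). Over all genes 7.71% were called higher in lung and 10.4% higher in cortex. Among the 38 these shares were 39.5% and 2.63%, and the median difference was -0.63 against -0.09 over all genes and -1.08 for the pan-endothelial list. With at least 2-fold required, 14 were higher in lung and 1 in cortex, where 4.95% and 7.89% of all genes were. All lung arrays lay above all cortex arrays for 15 of the genes, an order seen in 12% of all genes. These were not the same 15, since the called gene Itga9 overlapped, and Itgb7 was apart without a call (adjusted p = 0.115). Whether a lower value in cortex came from fewer cells of a type or from less RNA per cell cannot be told apart in these pooled cells. With the arrays set to an equal pan-endothelial mean, the median of all genes moved from -0.09 to 1.03, and of the 38 genes 3 were then higher in cortex (Itgb8, Itga1 and Itga4) and 2 higher in lung (Itga8 and Itgb4). That fit gave every gene the same SE, 0.581, whereas the unscaled fit has an SE for each gene (0.411 for Itga1), so calls from these fits differ in error as well as in scale. The count towards lung was 9 without cortex 72, and it was 2 when the 4 arrays numbered 19 and 18 were left out, which leaves 2 arrays a tissue. Over all genes these counts towards lung were 1000 and 197.

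**Figure D1:**
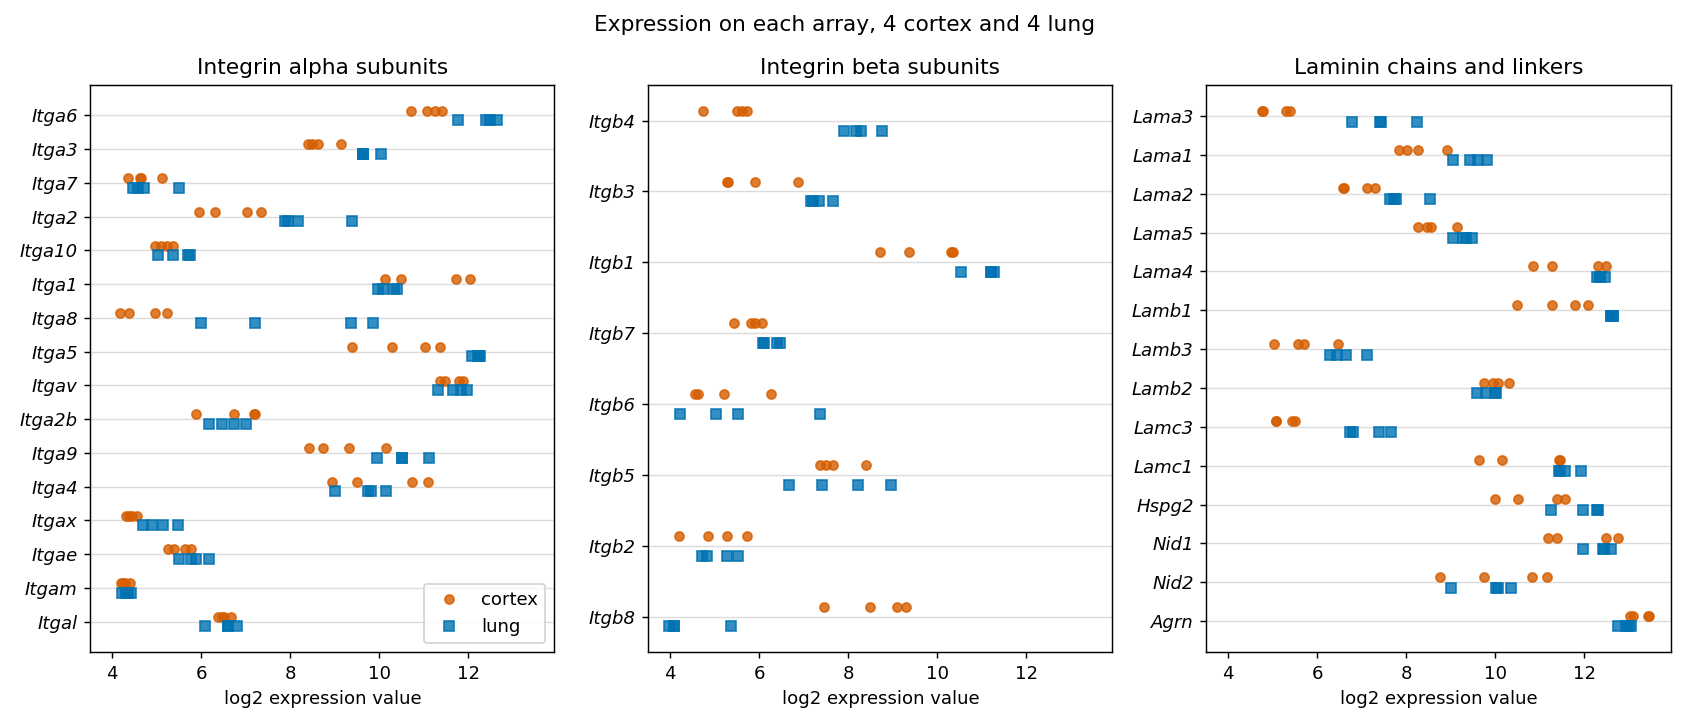
Log2 expression value of each gene on each array, with the integrin alpha subunits, the integrin beta subunits, and the laminin chains with their linkers in separate panels; orange circles are the 4 cortex arrays and blue squares the 4 lung arrays. Itgb8 is the gene with all cortex arrays above all lung arrays, while Itgb4, Lama3 and Lamc3 show wide gaps in the other direction and Agrn, Itgav and Lamb2 overlap.

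Itgb8 was the member higher in cortex. It encodes the beta subunit that pairs with Itgav alone, in the integrin that activates latent TGF-beta. Its values were 9.30, 9.09, 7.46 and 8.50 on cortex arrays 72, 22, 19 and 18, and 5.37, 4.09, 4.09 and 3.99 on lung arrays 72, 22, 19 and 18. The lowest cortex array, number 19, lay well above the highest lung array, number 72, and the groups did not overlap. The difference was 18.4-fold (4.20 ± 0.45 SE on the log2 scale, limma adjusted p = 0.000353), and it was called in each of the 19 alternative settings tried. Across the cortex arrays Itgb8 was lowest on number 19, which also had the lowest neural mean (10.68) and the highest pan-endothelial mean (11.40), while cortex 72 had the highest Itgb8 and the highest neural mean (11.27). The other cortex arrays went the opposite way, since number 18 had a higher neural mean (11.25) than number 22 (11.00) and a lower Itgb8. The part of neural transcripts in the difference was not tested. Its partner Itgav, which also pairs with several other beta subunits, was at 11.63 ± 0.24 in cortex and 11.69 ± 0.28 in lung (mean ± SD, n = 4 each). That difference, -0.06 with a 95% confidence interval of -0.49 to 0.38, did not pass (adjusted p = 0.863), and the arrays of the tissues overlapped.

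Of the 3 laminin-binding alpha subunits, Itga6 and Itga3 were higher in lung and Itga7 did not pass. The beta subunit Itgb4 was higher in lung too. Itgb4, which pairs with Itga6 in a laminin receptor of epithelial anchoring junctions and of some endothelium, was at 5.61, 5.73, 4.73 and 5.51 on cortex arrays 72, 22, 19 and 18 and at 7.90, 8.76, 8.30 and 8.18 on the lung arrays. The groups were far apart, with a gap of more than the whole range within either. Itgb4 was 7.41-fold higher in lung (-2.89 ± 0.26 SE, limma adjusted p = 0.000143) and, like Itgb8, kept its call in all 19 alternatives. Itga6, the laminin-binding subunit that serves with Itgb1 as well as with Itgb4, was at 11.07, 11.25, 11.41 and 10.72 in cortex and 12.49, 12.39, 12.65 and 11.77 in lung. All lung arrays lay above all cortex arrays, with lung 18 nearest to them, and the difference was 2.32-fold (adjusted p = 0.00747). Itga3, a laminin receptor subunit of epithelia and vessels, was at 8.41, 8.48, 9.15 and 8.63 in cortex and 9.64, 9.64, 9.65 and 10.04 in lung. The difference was 2.10-fold (adjusted p = 0.00597), with the groups apart and cortex 19 nearest to the lung arrays. Both calls ended when arrays were set to one pan-endothelial mean, at -0.09 for Itga6 and 0.045 for Itga3, and without the 4 arrays numbered 19 and 18 (adjusted p = 0.0765 and 0.0832). Itga7, the laminin-binding subunit of muscle, had means of 4.68 ± 0.31 for cortex and 4.82 ± 0.47 for lung and did not pass (adjusted p = 0.744).

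Markers of epithelium and mesothelium were set beside these genes, since both cell types carry Itgb4. The mean of 16 lung epithelial markers spanned 6.19 to 7.01 over the cortex samples and 6.44 to 7.77 over the lung samples, and the calls were 3 towards lung, 1 towards cortex and 12 without. The markers called towards lung were Krt8, Krt18 and Krt19, and the one towards cortex was Sox9. The list mean was highest on lung 72, where Itgb4 was lowest of the lung arrays. Krt8 and Krt19 were also highest on lung 72 (6.85 and 8.41), whereas Krt18 was highest on lung 22 (11.13), as Itgb4 was. The mesothelial list of 6 genes had means of 4.84 to 4.95 in cortex and 5.42 to 6.70 in lung, with 3 genes called towards lung and 3 without a call. The part of these cells in the difference of Itgb4 was not tested.

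Itgb1, the beta subunit shared by most matrix-binding alpha subunits, was at 9.37, 10.32, 10.35 and 8.72 on cortex arrays 72, 22, 19 and 18 and at 11.20, 11.21, 11.28 and 10.54 on the lung arrays. No cortex array reached the lowest lung array, number 18, and cortex 22 and 19 lay close below it. Itgb1 was 2.59-fold higher in lung (-1.37 ± 0.38 SE, limma adjusted p = 0.0375). This call ended without cortex 72 or 18 or without lung 72, 22 or 19 (differences of -1.05 to -1.32, adjusted p of 0.0613 to 0.0988), and after pan-endothelial scaling the difference was -0.25. Itga5, the alpha subunit of the main fibronectin receptor, was at 10.30, 11.04, 11.37 and 9.38 in cortex and within 12.09 to 12.26 on all lung arrays. Its lung arrays were nearly level while the cortex arrays spanned about 2 log2 units, and the difference was 3.21-fold (-1.68 ± 0.39 SE, adjusted p = 0.0174), lost without cortex 72 (-1.61, adjusted p = 0.0535). The call of Itga5 also ended after pan-endothelial scaling (-0.56, adjusted p = 0.383). It ended too without the 4 arrays numbered 19 and 18 (adjusted p = 0.116) and without lung 22 and 18 (adjusted p = 0.0924). Fibronectin itself, Fn1, picked for this comparison after its values were seen, was 2.49-fold higher in lung, at 12.89 ± 0.49 against 11.57 ± 0.45 (adjusted p = 0.0170, and 0.0527 without cortex 72). Pan-endothelial scaling left Fn1 at -0.20 without a call (adjusted p = 0.762).

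Of the collagen-binding subunits Itga1 and Itga2, Itga2 was higher in lung, while Itga1 had a higher mean in cortex that did not pass. The contrast between these genes was not tested. They are next to each other on chromosome 13 with no protein-coding gene between them in the RefSeq annotation, and both pair with Itgb1. Itga2 was at 6.31, 7.02, 7.35 and 5.95 on cortex arrays 72, 22, 19 and 18 and at 8.18, 7.95, 9.39 and 7.88 on the lung arrays. The groups did not overlap, and Itga2 was 3.23-fold higher in lung (-1.69 ± 0.41 SE, limma adjusted p = 0.0230), without a call when cortex 72 (-1.58, adjusted p = 0.0674) or cortex 18 (-1.46, adjusted p = 0.0594) was left out. Its call also ended after pan-endothelial scaling (-0.57, adjusted p = 0.373) and without the 4 arrays numbered 19 and 18 (adjusted p = 0.132). Itga1 was at 10.13, 11.72, 12.03 and 10.50 in cortex and 10.09, 10.33, 10.39 and 9.97 in lung. Cortex 22 and 19 lay more than 1 log2 unit above every lung array, whereas cortex 18 lay just above the highest lung array and cortex 72 within the lung range. The difference of Itga1, 0.90 with a confidence interval of -0.04 to 1.84, did not pass (adjusted p = 0.175), and it passed after pan-endothelial scaling (2.02, adjusted p = 0.0046). The third measured collagen-binding subunit, Itga10, known from cartilage, did not pass (cortex mean 5.17 ± 0.17, lung mean 5.47 ± 0.33, adjusted p = 0.321).

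The stretches of 250 bases before the RefSeq start of Itgb8, the gene higher in cortex, and of the neighbours Itga1 and Itga2, whose mean differences had opposite signs, are shown from the strand of the gene, 5′ to 3′, on GRCm38.p6. Capitals mark a match to CTTTGA, a core that TCF and LEF factors of Wnt signalling can bind, on either strand. The stretch of Itgb8 is chr12:119238277-119238526, that of Itga1 chr13:115101965-115102214 and that of Itga2 chr13:114932101-114932350, each on the minus strand.
Itgb8: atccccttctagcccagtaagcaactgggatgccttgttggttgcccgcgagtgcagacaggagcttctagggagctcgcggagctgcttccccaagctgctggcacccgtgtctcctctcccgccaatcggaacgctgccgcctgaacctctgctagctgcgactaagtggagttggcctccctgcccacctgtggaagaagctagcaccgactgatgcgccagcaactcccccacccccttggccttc
Itga1: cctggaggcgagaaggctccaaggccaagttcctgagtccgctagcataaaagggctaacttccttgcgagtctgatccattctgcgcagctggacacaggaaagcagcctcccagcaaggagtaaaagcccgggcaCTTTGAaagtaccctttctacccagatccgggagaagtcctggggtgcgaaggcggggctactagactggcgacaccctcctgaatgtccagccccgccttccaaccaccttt
Itga2: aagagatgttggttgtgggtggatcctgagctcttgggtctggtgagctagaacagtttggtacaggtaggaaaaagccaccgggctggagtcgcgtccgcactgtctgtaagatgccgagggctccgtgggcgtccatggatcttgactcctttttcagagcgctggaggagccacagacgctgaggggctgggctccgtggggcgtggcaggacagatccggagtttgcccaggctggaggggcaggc
Itga1 held 1 match, which begins 113 bases before the start, and the others held 0. Among the 27025 stretches of all genes, 14% held such a match. Of 25 of the 38 genes with a stretch in the table, 4 did. The GC box GGGCGG had 0 matches on either strand in the 3 stretches shown, and 32.9% of all stretches held it. The ETS core CCGGAA, the AP-1 site TGACTCA and the TATA box TATAAA had 0 matches there too, and were found in 12.2%, 4.43% and 13% of all. None of these motifs contains another, and a match is a description of the sequence.

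Among the other alpha subunits the largest difference was that of Itga8, a partner of Itgb1 found in mesenchyme and smooth muscle that binds nephronectin. It was at 5.23, 4.96, 4.19 and 4.37 on cortex arrays 72, 22, 19 and 18 and at 9.87, 7.21, 9.36 and 6.01 on the lung arrays. Lung 72 and 19 were high and lung 22 and 18 much lower, with all of them above the cortex arrays. Itga8 was 10.7-fold higher in lung (-3.42 ± 0.79 SE, limma adjusted p = 0.0183), lost without lung 19 (-3.01, adjusted p = 0.0515). The call was also lost without the 4 arrays numbered 19 and 18 (-3.45, adjusted p = 0.154). The mean of 16 fibroblast and mesenchyme markers followed the same order over the lung arrays, with 9.35, 8.80, 8.26 and 7.39 on numbers 72, 19, 22 and 18, and lay at 5.84 to 6.25 on the cortex arrays, with 12 of the 16 markers called towards lung and 0 towards cortex. The part of mesenchymal cells in the difference of Itga8 was not tested.

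Itga9, which binds tenascin C and Vcam1, was at 8.75, 9.31, 10.16 and 8.43 in cortex and 10.51, 10.52, 11.12 and 9.96 in lung. Cortex 19 reached above the lowest lung array, number 18, so that the groups overlapped. Its difference of -1.36 ± 0.39 SE just passed (limma adjusted p = 0.0430). Leaving out cortex 72, 22 or 18, or lung 72, 22 or 19, ended the call (-1.12 to -1.41, adjusted p of 0.0756 to 0.112). So did pan-endothelial scaling (-0.24, adjusted p = 0.707). Itga4, the related subunit of leukocytes and of developing vessels, was at 9.51, 10.74, 11.09 and 8.94 in cortex and 10.16, 9.0, 9.81 and 9.75 in lung. Cortex 22 and 19 were above every lung array and cortex 72 and 18 were not, and the difference of 0.39 did not pass (adjusted p = 0.611), but it passed after pan-endothelial scaling (1.51, adjusted p = 0.0434).

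**Figure D2:**
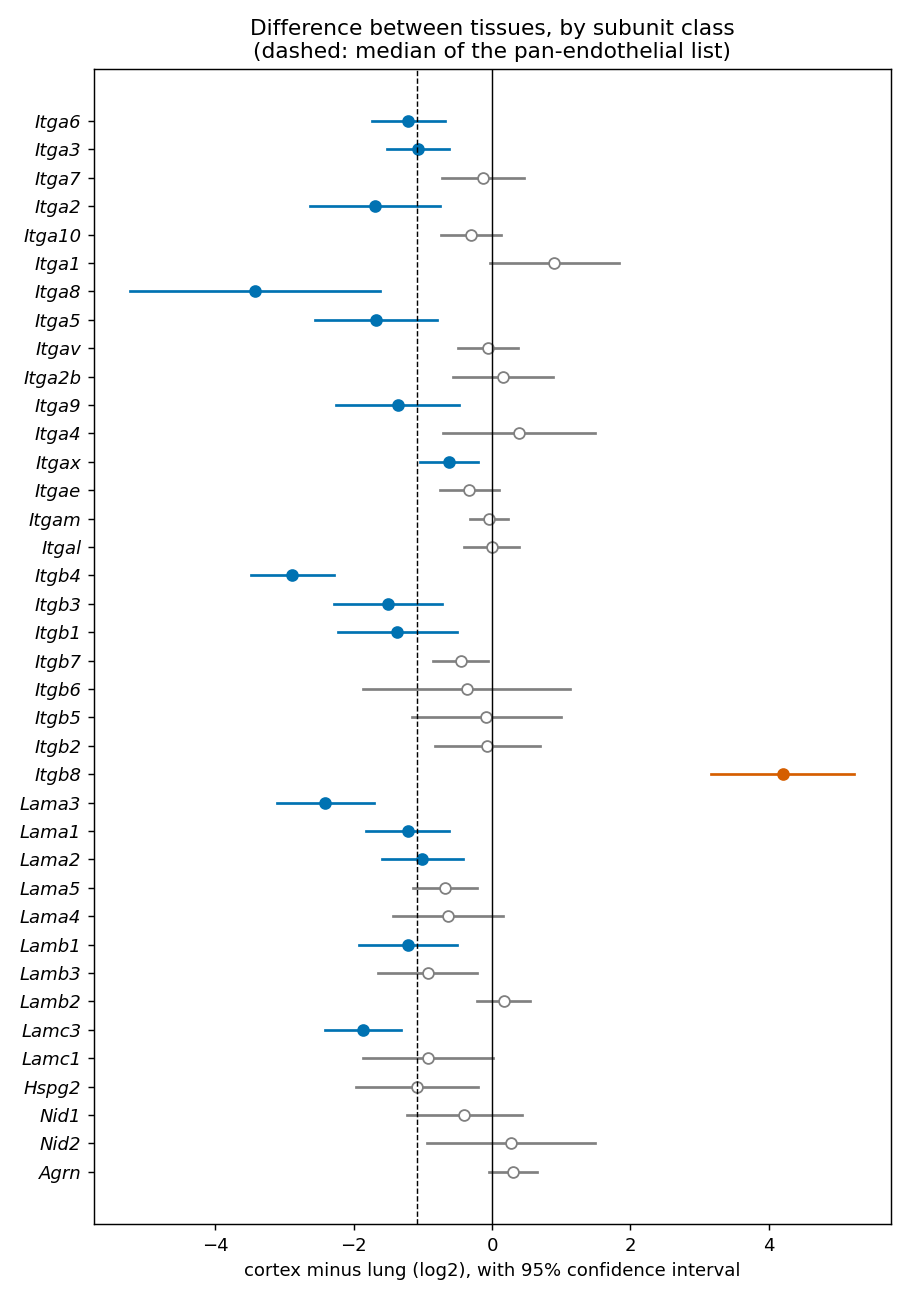
Cortex minus lung on the log2 scale for each gene with its 95% confidence interval, ordered by subunit class; filled blue points were called higher in lung, the filled orange point higher in cortex, and open grey points were not called. The dashed line marks the median of the pan-endothelial list, -1.08, near which Itga6, Itga3, Lama1, Lamb1 and Hspg2 lie, while Itgb8, at 4.20, stands alone on the cortex side.

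Of the integrins known from platelets and leukocytes, Itgb3 and Itgax were called, both towards lung. Itgb3, which pairs with Itga2b on platelets and with Itgav on endothelium, was at 6.87, 5.30, 5.91 and 5.27 on cortex arrays 72, 22, 19 and 18 and at 7.16, 7.21, 7.34 and 7.65 on the lung arrays. All lung arrays lay above all cortex arrays, with cortex 72 close to them, and Itgb3 was 2.84-fold higher in lung (-1.50 ± 0.34 SE, limma adjusted p = 0.0171). Itgb3 lost its call in 3 of 19 alternatives. These were pan-endothelial scaling (-0.39, adjusted p = 0.549), without the 4 arrays numbered 19 and 18 (-1.10, adjusted p = 0.443) and without lung 22 and 18 (-1.41, adjusted p = 0.0931). Its platelet partner Itga2b did not pass (cortex mean 6.76 ± 0.62, lung mean 6.61 ± 0.35, adjusted p = 0.764). The mean of 12 megakaryocyte and platelet markers spanned 5.70 to 7.04 in cortex, highest on number 72 as for Itgb3, and 6.13 to 6.65 in lung, with 1 marker called each way. The one towards cortex was Gp1bb (3.56-fold), and the one towards lung was Vwf (4.28-fold), at means of 10.49 in cortex and 12.59 in lung. The part of platelets in the difference of Itgb3 was not tested.

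Of the 4 leukocyte alpha subunits, Itgax, a subunit of dendritic cells and macrophages, was higher in lung, at 5.06 ± 0.34 against 4.43 ± 0.10 in cortex (-0.63, limma adjusted p = 0.0469). Its lowest lung array, at 4.69, was just above its highest cortex array, at 4.57, and every array lay below log2 6, the limit used for dim probe sets. Leaving out any 1 array except lung 22 ended the call (adjusted p of 0.0602 to 0.117), and after pan-endothelial scaling the difference was 0.49. Itgal, Itgam and Itgae, subunits of lymphocytes, myeloid cells and intraepithelial lymphocytes, did not pass, with differences of -0.33 to -0.01. Itgb2, the beta subunit common to Itgal, Itgam and Itgax, had means of 5.02 ± 0.66 for cortex and 5.09 ± 0.38 for lung (adjusted p = 0.904). Microglial and macrophage markers were measured beside them, with 6 of 17 called towards cortex and 0 towards lung. Their mean was 8.39, 8.07 and 8.73 on cortex 72, 22 and 19 but 5.72 on cortex 18, and 5.44 to 6.35 on the lung arrays. Itgam and Itgb2 were not called, while macrophage markers were high on 3 of the 4 cortex arrays. Itgam had means of 4.29 ± 0.09 for cortex and 4.33 ± 0.08 for lung. Itgam and Itgb2 also lay below log2 6 on every array, so these dim values cannot show whether the subunits follow the markers. The remaining beta subunits, Itgb5, Itgb6 and Itgb7, partners of Itgav or of Itga4 and Itgae, did not pass either, with differences of -0.08, -0.37 and -0.46 (adjusted p of 0.115 to 0.920).

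Of the 10 laminin chains, 5 were higher in lung, 5 did not pass and 0 were higher in cortex, with a median difference of -0.97. Lama4 and Lama5, the alpha chains of vessel walls, were among those that did not pass. Lama4, the alpha chain of endothelial basement membranes from early development on, was at 11.28, 12.30, 12.48 and 10.85 on cortex arrays 72, 22, 19 and 18 and at 12.28, 12.35, 12.48 and 12.34 on the lung arrays. Cortex 22 and 19 matched the lung arrays and cortex 72 and 18 lay below, and the difference of -0.63 did not pass (limma adjusted p = 0.257). Lama5, the alpha chain of more mature vessels and of epithelia, was at 8.56, 9.13, 8.48 and 8.26 in cortex and 9.05, 9.28, 9.35 and 9.48 in lung. Cortex 22 alone reached into the lung range, and the difference of -0.68 ± 0.20 SE fell just short of the threshold (adjusted p = 0.0504). It passed without cortex 22 (-0.86, adjusted p = 0.0127), with arrays centred on their medians (adjusted p = 0.0307), with array quality weights (0.0448), without dim probe sets (0.044) and with the mean of all its probe sets (0.0431).

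Lamb1, the common beta chain of embryonic laminins, was at 11.27, 11.78, 12.09 and 10.49 in cortex and between 12.60 and 12.65 on all lung arrays. The lung arrays were nearly level and above every cortex array, and Lamb1 was 2.32-fold higher in lung (-1.22 ± 0.31 SE, limma adjusted p = 0.0286). The call ended without cortex 72 (-1.17, adjusted p = 0.0762) or without any 1 lung array (-1.21 to -1.22, adjusted p of 0.0566 to 0.066), and with the mean of its 4 probe sets (-1.08, adjusted p = 0.1005) or the one of highest variance (-1.22, adjusted p = 0.145). Pan-endothelial scaling left Lamb1 at -0.10 (adjusted p = 0.881). Lamc1, the gamma chain of most laminins, was at 10.14, 11.43, 11.46 and 9.63 in cortex and 11.46, 11.57, 11.92 and 11.43 in lung. Cortex 22 and 19 lay at the lower edge of the lung arrays and cortex 72 and 18 below them, and the difference of -0.93 did not pass (adjusted p = 0.164). Lamb2, the beta chain of mature vessel walls, had a difference of 0.17 with a confidence interval of -0.22 to 0.55 (cortex mean 10.02 ± 0.23, lung mean 9.85 ± 0.20, adjusted p = 0.528).

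Lama3 and Lamc3 had the largest differences of the 10 laminin chains. Lama3, the alpha chain of the laminin that binds the Itga6-Itgb4 receptor under epithelia, was at 4.76, 5.30, 5.39 and 4.78 on cortex arrays 72, 22, 19 and 18 and at 7.43, 7.41, 8.25 and 6.79 on the lung arrays. Every lung array was more than 1 log2 unit above every cortex array. Lama3 was 5.31-fold higher in lung (-2.41 ± 0.31 SE, limma adjusted p = 0.000864) and lost its call in 1 of 19 alternatives, pan-endothelial scaling (-1.29, adjusted p = 0.0835). Its beta partner Lamb3 was at 5.56, 6.48, 5.04 and 5.70 in cortex and 6.45, 6.64, 7.13 and 6.29 in lung. Cortex 22 overlapped the lung arrays, and the difference of -0.93 did not pass (adjusted p = 0.0741), although it did without cortex 22 (-1.20, adjusted p = 0.0193). Lamc3, a gamma chain of fewer tissues than Lamc1, was at 5.09, 5.45, 5.51 and 5.07 in cortex and 6.73, 7.40, 7.67 and 6.80 in lung. It was 3.65-fold higher in lung (adjusted p = 0.000914), again with every lung array more than 1 log2 unit above every cortex array. The call ended after pan-endothelial scaling (-0.75, adjusted p = 0.253) and without the 4 arrays numbered 19 and 18 (adjusted p = 0.0765).

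Lama1, the alpha chain of the earliest embryonic basement membranes, was at 8.92, 8.27, 8.02 and 7.84 on cortex arrays 72, 22, 19 and 18 and at 9.62, 9.05, 9.43 and 9.81 on the lung arrays. The nearest arrays were cortex 72 and lung 22, and the groups did not overlap. Lama1 was 2.33-fold higher in lung (-1.22 ± 0.26 SE, limma adjusted p = 0.0136), with no call after pan-endothelial scaling (-0.10) or without the 4 arrays numbered 19 and 18 (-0.74, adjusted p = 0.428). Lama2, the alpha chain of muscle and of perivascular cells, was at 7.30, 7.13, 6.61 and 6.59 in cortex and 8.55, 7.63, 7.74 and 7.76 in lung. It was 2.02-fold higher in lung (-1.01 ± 0.26 SE, adjusted p = 0.0267), with lung 72 high and the other lung arrays close together, and it lost its call without cortex 19 (-0.91, adjusted p = 0.065) or cortex 18 (-0.90, adjusted p = 0.0745). Its call also ended after pan-endothelial scaling (0.11, adjusted p = 0.871) and without the 4 arrays numbered 19 and 18 (adjusted p = 0.369). In both genes cortex 72 held the highest cortex value and cortex 18 the lowest.

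Of the 4 linkers of the basement membrane, 0 were called in limma, and Hspg2 alone had an unadjusted p under 0.05. Hspg2 encodes perlecan, the large heparan sulphate proteoglycan of vessel walls, and was at 10.50, 11.40, 11.56 and 10.00 on cortex arrays 72, 22, 19 and 18 and 11.96, 12.32, 12.29 and 11.25 on the lung arrays. Cortex 22 and 19 reached above the lowest lung array, number 18, and the difference of -1.09 did not pass (adjusted p = 0.0908). It passed with array quality weights (-1.20, adjusted p = 0.0289) and with the sample number as a block (adjusted p = 0.0126), while pan-endothelial scaling set it to 0.029. Agrn encodes agrin, a heparan sulphate proteoglycan of brain vessel walls and of nerve-muscle junctions. It was at 13.08, 13.43, 13.46 and 13.03 in cortex and 12.76, 13.01, 13.06 and 12.94 in lung. The values were high and close on all arrays, and the difference of 0.30, with a confidence interval of -0.04 to 0.65, did not pass (adjusted p = 0.216).

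Nidogens bind laminin gamma chains to collagen IV. Nid1 was at 11.39, 12.50, 12.76 and 11.18 in cortex and 12.44, 12.61, 12.43 and 11.97 in lung, with a difference of -0.40 (limma adjusted p = 0.484). Nid2 was at 9.74, 10.83, 11.17 and 8.76 in cortex and 10.35, 10.02, 10.07 and 9.0 in lung, with a difference of 0.27 (adjusted p = 0.758). In both genes cortex 19 held the highest value of all arrays, and the lowest value was that of cortex 18.

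The same cortex arrays were high in many of these genes. For 19 of the 38, or 50%, cortex 22 and 19 both lay above cortex 72 and 18, an order found in 17.0% of all genes, and for 3, or 7.89%, they lay below, against 28.7% of all genes. Cortex 22 and 19 are the arrays with the higher pan-endothelial means. The mean of that pair exceeded the mean of cortex 72 and 18 by 1.75 for Nid2, 1.69 for Itga4, 1.57 for Itga1, 1.56 for Lamc1, 1.36 for Itga5, 1.34 for Nid1 and 1.33 for Lama4. It was lower by a difference of -0.62 for Itgb8, and near 0 for Lama2 (-0.07) and Itga10 (-0.002). In Itga1, Itga4, Nid2 and Agrn both of these cortex arrays also lay above every lung array, as all cortex arrays did in Itgb8. The order of the arrays was known when this count was chosen, and the part of endothelial content in it was not tested.

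**Figure D3:**
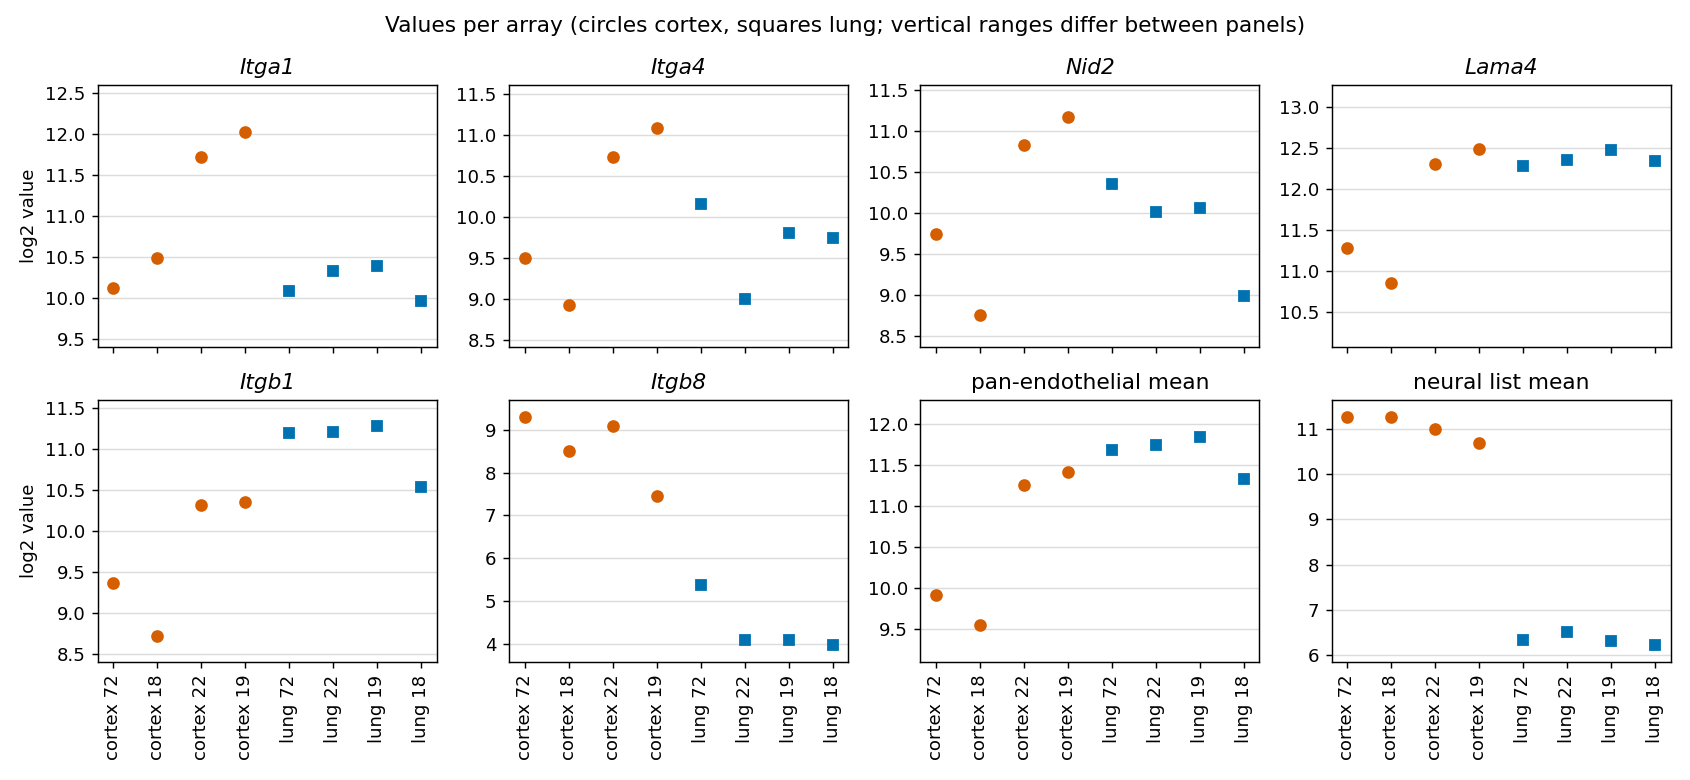
Log2 values on each array for Itga1, Itga4, Nid2, Lama4, Itgb1 and Itgb8, and the means of the pan-endothelial and neural lists; circles are cortex arrays, with 72 and 18 placed before 22 and 19, squares are lung arrays, and vertical ranges differ between panels. Itga1, Itga4, Nid2, Lama4 and Itgb1 are higher on cortex 22 and 19 than on cortex 72 and 18, as the pan-endothelial mean is, while Itgb8 is lowest of the cortex arrays on number 19.

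Other genes of cell-matrix adhesion were counted on 5 lists taken from textbook knowledge, which held 80 measured genes. Of these 30 were called towards lung, 4 towards cortex and 46 neither way, with a median difference of -0.73. The shares were 37.5% towards lung and 5% towards cortex, beside 7.71% and 10.4% of all genes. The count towards lung was 4, and that towards cortex 10, after pan-endothelial scaling, when 152 and 4063 of all 18193 genes were called. Of 27 adaptors that join integrins to actin, 9 were higher in lung and 1 in cortex, with a median of -0.80. The largest were the focal adhesion protein Zyx, 3.15-fold higher in lung at 11.26 ± 0.16 against 9.61 ± 0.21 (limma adjusted p = 0.000155), and talin 1, Tln1, 2.71-fold higher at 11.41 ± 0.11 against 9.97 ± 0.73 (adjusted p = 0.0166). After pan-endothelial scaling neither Zyx (-0.54, adjusted p = 0.404) nor Tln1 (-0.32, adjusted p = 0.62) was called. With the probe set of highest variance in place of the brightest, Tln1 turned to 1.92 towards cortex (adjusted p = 0.00939).

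Of 16 integrin ligands other than laminins, 8 were higher in lung and 1 in cortex, with a median of -1.26. Periostin, Postn, a matrix protein of fibroblasts that is also on the mesenchyme list, was 34.3-fold higher in lung, at 10.77, 10.45, 10.51 and 7.09 on lung arrays 72, 22, 19 and 18 and 4.61 ± 0.20 in cortex (limma adjusted p = 0.00189). Vitronectin, Vtn, a ligand of Itgav integrins that pericytes also make, was 8.16-fold higher in cortex, at 8.52, 8.89, 8.17 and 7.21 on cortex arrays 72, 22, 19 and 18 and 5.17 ± 0.33 in lung (adjusted p = 0.000496). Pericyte and smooth muscle markers had means of 6.86 to 7.09 in cortex and 6.88 to 8.24 in lung, with 1 of 15 called towards cortex and 3 towards lung. The marker called towards cortex was Rgs5 (4.58-fold), and those towards lung were Acta2 (25.2-fold), Anpep (8.04-fold) and Tagln (4.14-fold). The part of pericytes in the difference of Vtn was not tested. Tgfb1, whose latent form the Itgav-Itgb8 integrin binds, was picked for this comparison after its values were seen. It was 5.23-fold higher in lung, at 9.88 ± 0.13 against 7.50 ± 1.09 (adjusted p = 0.00876), the opposite direction to Itgb8. The call of Tgfb1 ended after pan-endothelial scaling (-1.27, adjusted p = 0.089). It also ended without the 4 arrays numbered 19 and 18 (adjusted p = 0.0537) and without lung 22 and 18 (adjusted p = 0.0556).

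Of 10 other laminin receptors and their anchors, 2 were higher in lung and 0 in cortex, with a median of -0.22. They were the laminin receptor Bcam, by 3.20-fold (limma adjusted p = 0.00177), and the syndecan Sdc1, 1.74-fold (adjusted p = 0.00487), which turned to 0.32 after pan-endothelial scaling. Of 17 other basement membrane components, 8 were higher in lung and 1 in cortex, with a median of -0.49. Vwa1, a perlecan-binding protein, was 20.6-fold higher in cortex at 10.48, 11.46, 11.29 and 9.44 on arrays 72, 22, 19 and 18 against 6.30 ± 0.33 in lung (adjusted p = 0.000203), and fibulin 2, Fbln2, was 11.8-fold higher in lung (adjusted p = 0.00151). Of 10 cell surface partners of integrins, 3 were higher in lung and 1 in cortex, with a median of -0.43. Caveolin 1, Cav1, had a 7.42-fold higher level in lung (adjusted p = 0.00994). For the tetraspanin Tspan8 it was 3.69-fold (adjusted p = 0.0141). After pan-endothelial scaling the calls of Bcam (-0.56, adjusted p = 0.385) and Tspan8 (-0.76, adjusted p = 0.245) ended. Without the 4 arrays numbered 19 and 18, Bcam, Sdc1, Fbln2, Cav1 and Tspan8 had no call (adjusted p of 0.0630 to 0.201). Leaving out lung 22 and 18 ended the calls of Cav1 (adjusted p = 0.0595) and Tspan8 (adjusted p = 0.0871).

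**Figure D4:**
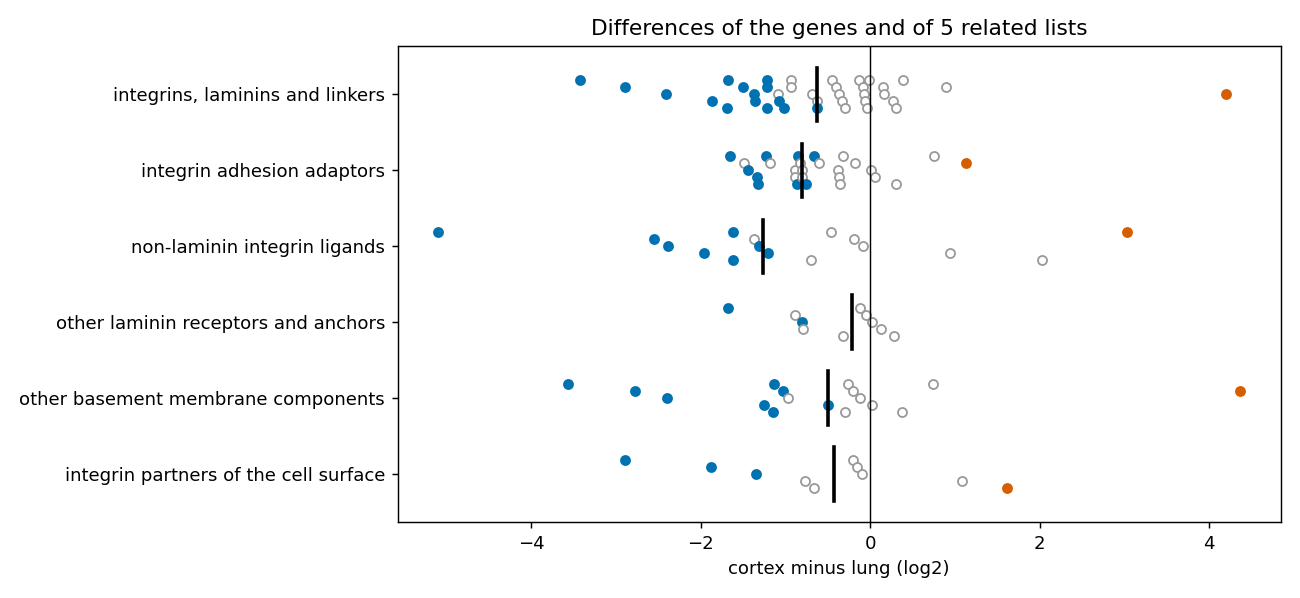
Cortex minus lung on the log2 scale for the 38 genes and for the genes of 5 related lists; each point is a gene, filled blue where called higher in lung, filled orange where called higher in cortex and open where not called, and each bar is the median of its row. Every median lies below 0, from -0.22 for other laminin receptors to -1.26 for integrin ligands, and Itgb8, Vtn and Vwa1 are the points beyond 3 on the cortex side.

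Of the 38 genes, 23 had several probe sets, and 81 probe sets were measured in all. Probe sets of both signs were found for Itgb1, Itgav and Itgb5. For Itgb1, 5 of its 6 probe sets lay between -1.37 and -0.89 and the sixth, dim in both tissues (3.38 in cortex, 3.36 in lung), at 0.02. When every probe set was tested, 2 of the 6 were called higher in lung, and the brightest was not (limma adjusted p = 0.0514 over 45037 probe sets). The brightest probe set of Itga9 was not called there either (adjusted p = 0.0585). All 3 probe sets of Itga3, both of Itga6 and both of Lamc3 were called higher in lung. The second probe set of Itga8 lay at -0.44, that of Lama3 at -0.43 and that of Itgb3 at -0.11, without a call, so the folds of these genes rest on 1 probe set each. These second probe sets were dim in both tissues. Their cortex and lung means were 3.51 and 3.95 for Itga8, 5.24 and 5.68 for Lama3, and 5.34 and 5.45 for Itgb3. Itgb8 and Itgb4 had 1 probe set each.

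**Figure D5:**
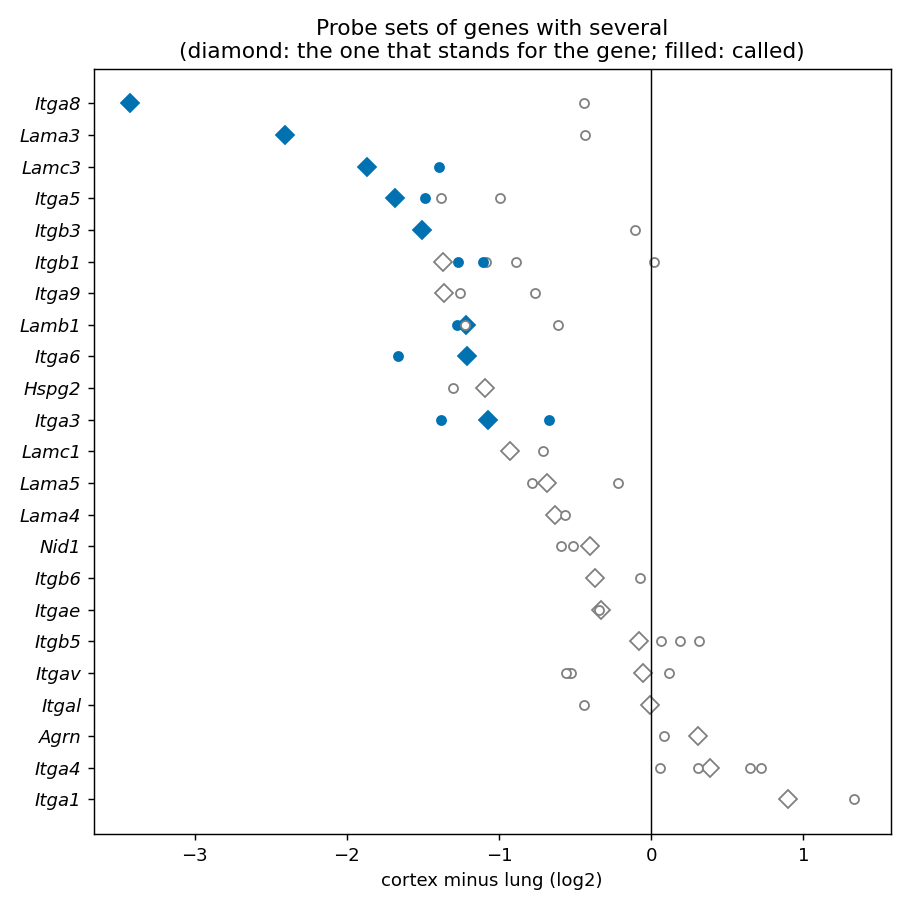
Cortex minus lung on the log2 scale for every probe set of the 23 genes with several; diamonds are the probe sets that stand for the gene, circles the others, and filled symbols were called over all probe sets. The probe sets of Itga3, Itga6 and Lamc3 are filled throughout, whereas for Itga8, Lama3 and Itgb3 the other probe set, dim in both tissues, is open and lies between -0.44 and -0.11.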

How the data were processed

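RNA of sorted cells (15 to 30 ng) was linearly amplified and hybridised to Affymetrix mouse arrays, per the labels' protocols. The deposited table holds log2 values for each probe set, made by the authors, and the submitters' processing notes name RMA and the affy package (versions not given in the sources used here). RMA compresses low values, so a fold against a dim group is understated, and quantile normalization, which RMA normally includes, sets each value relative to the other values of its array. All columns were mapped to samples by identifier.

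Tests left out 64 control probe sets. Of the other 45037, 34945 named 1 gene in the platform annotation, 932 several and 9160 were unnamed here. The single-gene probe set of highest mean (8 arrays) stood for each gene, which gave 18193 genes and no filter on dim values. All 38 symbols matched the RefSeq table by gene number. Promoter sequences come from RefSeq on GRCm38.p6.

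The tissues were tested against each other in R 4.3.3 with limma 3.58.1 (lmFit, eBayes, no block), two-sided, with Benjamini-Hochberg adjustment over all genes and calls at an adjusted p under 0.05. SD and n are over arrays, and confidence intervals are at 95%. The fit was run on simulated data with 200 changed genes and independent noise for each gene. Shifts shared by many genes of an array were not simulated, so that run cannot tell how they affect the calls. The genes, lists, naming rule and alternatives were chosen with earlier results of these data known. Values in every array are given for members called at 2-fold or more and for 12 vessel wall genes chosen by name (Itgb1, Itgav, Itga5, Itga6, Lama4, Lama5, Lamb1, Lamc1, Nid1, Nid2, Hspg2 and Agrn), with Itgav by its mean, and for some others named. Of each related list the 2 called genes of largest difference were named. Alternatives were median centring, pan-endothelial scaling, a filter on dim probe sets (log2 6 on at least 4 arrays), array weights, a trend in the prior variance, the sample number as a block, other choices of probe set, and arrays left out.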

Additional observations from a re-analysis of the deposited data

Results flagged for a closer look

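Within a tissue, 1 array stood apart from the other 3 in 6 of the 100 groups of 4 examined, where chance gives about 1 in 20. On lung 18, Itga3 was high at 10.04 (nearest 9.65), Itgb1 low at 10.54 (nearest 11.20), Zyx high at 11.50 (nearest 11.19) and Postn low at 7.09 (nearest 10.45). On lung 72, Itgb8 was high at 5.37 (nearest 4.09) and Lama2 high at 8.55 (nearest 7.76).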

How the results depend on the processing

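Of the 16 called genes, Itgb8 and Itgb4 kept direction and call in all 19 alternatives, and 8 kept the call without each array in turn. The filter on dim probe sets kept 31 of the 38 genes and took out Itga7, Itga10, Itgae, Itgam, Itgax, Itgb2 and Itgb6. Pan-endothelial scaling gave 3 genes higher in cortex and 2 in lung, 4063 and 152 over all genes, 10 and 4 on the related lists, 9 genes with probe sets of both signs and 0 with cortex 22 and 19 above. It turned Hspg2 (0.029), Itga10 (0.82), Itga3 (0.045), Itga7 (0.98), Itgae (0.79), Itgal (1.11), Itgam (1.08), Itgav (1.06), Itgax (0.49), Itgb2 (1.05), Itgb5 (1.04), Itgb6 (0.75), Itgb7 (0.66), Lama2 (0.11), Lama4 (0.48), Lama5 (0.43), Lamb3 (0.18), Lamc1 (0.19), Nid1 (0.71) and Sdc1 (0.32), since it raises every difference by 1 amount. Array weights gave 2233 genes higher in lung and turned Itgal (0.24) and Itgb6 (0.016). The mean of all probe sets turned Itgb5 (0.12), and the probe set of highest variance turned Itgb5 (0.31) and Tln1 (1.92). Without the 4 arrays numbered 19 and 18, with fewer samples, 2 of the 38 genes were higher in lung, 458 of all genes higher in cortex and 197 in lung, 2 and 5 on the related lists, and Itgb2 stood at 0.34. Requiring 2-fold left 901 genes higher in lung. Without lung 22 and 18, chosen after seeing the data, 19 related genes were higher in lung, and Itga2b (-0.12), Itgal (0.069), Itgb6 (0.54) and Nid2 (-0.084) turned.

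With each array left out in turn, 9 to 15 of the 38 genes were higher in lung (9 without cortex 72) and 2 to 6 had probe sets of both signs (6 without lung 22, 5 without lung 18). Differences that changed sign ranged from -0.28 to 0.091 for Itga7, -0.15 to 0.086 for Itgal, -0.18 to 0.038 for Itgav, -0.31 to 0.20 for Itgb2, -0.46 to 0.30 for Itgb5, -0.81 to 0.24 for Itgb6 and -0.079 to 0.72 for Nid2. None of these 7 passed the test. The cause of these shifts was not tested.

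With the sample number as a replicate block, 1 gene was higher in cortex and 15 in lung, with Itgax lost (adjusted p = 0.0779) and Hspg2 gained (adjusted p = 0.0126). Deviations of same-numbered samples correlated at 0.335, -0.162, 0.00886 and 0.307 for numbers 72, 22, 19 and 18. These values are mixed and do not settle whether samples of 1 number share a litter.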
